A study of Mus musculus with 4 samples.

Results

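The 10 genes described here carry Wnt signals in fibroblasts: the ligands Wnt5a and Wnt5b, the receptors Fzd1, Fzd2 and Fzd7, the nuclear factors Lef1 and Tcf7l2, the feedback gene Axin2, and the secreted inhibitors Dkk2 and Sfrp1. An accessible site belonged to a gene if it overlapped the gene body or lay no more than 30 kb from its transcription start (TSS) in GENCODE gene models of mm10. This gave 81 of the 82325 sites in the table. Tcf7l2 had 26 sites, Wnt5b 15, Dkk2 8, Fzd2 and Fzd7 7 each, Wnt5a 5, Fzd1 and Axin2 4 each, Lef1 3 and Sfrp1 2. By place, 25 sites lay within 3 kb of an annotated start of their gene, 30 in introns, 3 in exons and 23 outside the gene. Sites were taken by gene name and position, not by their values, but the genes were chosen with earlier results of these data known. The rule has a distance limit, and the farthest site it took in by distance, 29.7 kb upstream of Tcf7l2, held 206, 207, 266 and 156 normalized counts in WT replicates 1 and 2 and KO replicates 1 and 2, while the nearest site it left out, 30.2 kb from the Fzd1 start, held 205, 239, 306 and 208.

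The cells were mouse embryonic fibroblasts (MEFs) of C57bl6 background immortalized with SV40 T antigen, an agent that all lines share. HAT1 WT lines (HAT1+/+) were compared with HAT1 KO lines (HAT1-/-), which lack the acetyltransferase that modifies newly made histone H4, to ask how accessibility depends on HAT1. Each genotype had 2 libraries, each from a separate line, so the spread between replicates is a spread between lines, and a property of a line cannot be told apart from its genotype by a single line. The lines named WT replicate 1 and KO replicate 2 here share the number 643 in their labels, whose meaning the labels do not give. Age and sex of the embryos were not used here. The assay was ATAC-Seq, which uses the Tn5 transposase to insert adapters where DNA is exposed. A value is a normalized count, the reads over a site divided by a factor for its library and rounded by the authors. A lower value in all cells and a loss in a share of the cells cannot be told apart.

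Wnt proteins are secreted ligands that bind Frizzled receptors at the cell surface. In the canonical branch this keeps beta-catenin from being destroyed, and beta-catenin then joins TCF/LEF factors at target genes such as Axin2, whose product feeds back to promote its destruction. Other branches, driven by ligands such as Wnt5a, act on cell polarity and movement without beta-catenin. Fibroblasts both send and receive these signals during the growth of limbs and connective tissue.

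The libraries had normalized totals of 8008069 to 8516263 and site medians of 51 to 53. About 9420000 and 11400000 reads fell in sites in the WT libraries, against about 7830000 and 5650000 in the KO libraries, so the KO values carry more counting error. Of the fibroblast markers, 9 of 10 had a site within 3 kb of a start, summing to 2490 to 2936 in WT and 2855 to 3093 in KO, and Pdgfra had none. Markers of other cells summed to 112 to 196 for epithelium (3 of 4 with a site, Krt18 without), 158 to 200 for endothelium (2 of 3, Cdh5 without), 152 to 215 for blood cells (1 of 3, Ptprc and Spi1 without) and 29 to 99 for neural cells (1 of 2, Rbfox3 without), and neither muscle marker, Myod1 or Myog, had a site. These sums grow with the number of sites. Per marker with a site, the median was 202.5 in WT and 238 in KO for fibroblasts. For the single blood marker, Cd68, it was 176 and 183.5. It was 89.25 and 89.5 for endothelium, 62 and 64 for neural cells, and 46.5 and 31.5 for epithelium. The promoter site of Hat1 held 390 and 384 normalized counts in WT and 438 and 368 in KO. Accessibility at the targeted gene thus gave no check of the genotype labels.

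Of the 81 sites, 4 combined values that did not overlap between the genotypes with a difference of at least 2-fold, and these are the sequences on which the site results below turn. They are shown first, from the mm10 reference, on the plus strand and 5′ to 3′, in lower case because none holds a match to the motifs searched. The site 5.8 kb upstream of the Dkk2 start (chr3:132079168-132079445, outside the gene) and the site 7.1 kb from the Fzd1 start (chr5:4750732-4750948, 2.9 kb beyond the 3′ end of the gene) are whole. The site 7.5 kb from the Fzd1 start, 3.3 kb beyond the 3′ end, is shown by its central 300 bases (chr5:4750130-4750429), and so is the site 28.1 kb from the Wnt5a start, 5.4 kb beyond the 3′ end (chr14:28532936-28533235).
Dkk2, 5.8 kb upstream: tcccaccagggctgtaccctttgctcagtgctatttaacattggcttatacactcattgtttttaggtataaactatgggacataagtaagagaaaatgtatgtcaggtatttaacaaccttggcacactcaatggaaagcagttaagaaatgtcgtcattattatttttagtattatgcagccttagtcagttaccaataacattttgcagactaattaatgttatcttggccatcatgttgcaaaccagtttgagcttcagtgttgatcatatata
Fzd1, 7.1 kb downstream: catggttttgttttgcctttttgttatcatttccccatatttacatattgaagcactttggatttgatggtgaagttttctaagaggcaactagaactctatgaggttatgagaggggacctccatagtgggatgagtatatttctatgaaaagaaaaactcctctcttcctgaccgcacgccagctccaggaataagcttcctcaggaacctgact
Fzd1, 7.5 kb downstream: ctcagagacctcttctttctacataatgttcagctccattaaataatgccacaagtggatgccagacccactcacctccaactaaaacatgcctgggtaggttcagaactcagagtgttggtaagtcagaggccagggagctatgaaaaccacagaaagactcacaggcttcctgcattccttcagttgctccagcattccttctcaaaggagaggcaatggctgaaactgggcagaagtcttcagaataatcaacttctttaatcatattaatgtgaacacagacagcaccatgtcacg
Wnt5a, 28.1 kb downstream: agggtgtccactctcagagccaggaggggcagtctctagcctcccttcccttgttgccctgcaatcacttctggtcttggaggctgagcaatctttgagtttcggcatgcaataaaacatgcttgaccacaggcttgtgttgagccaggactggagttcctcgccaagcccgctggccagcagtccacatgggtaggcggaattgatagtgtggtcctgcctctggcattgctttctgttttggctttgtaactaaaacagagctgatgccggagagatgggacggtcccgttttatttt
The GC content of these windows was 35.3%, 41.0%, 45.0% and 53.0% in that order, against a median of 51.7% over the central 300 bases of the 81 sites and 48.3% over those of all sites.

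The letters that TCF/LEF factors read were looked for because these genes include both factors and targets. The motif searched was CTTTGAT or CTTTGAA, on both strands, in the central 300 bases of each site. It occurred in 4 of the 81 windows (4.94%), against 9.16% of the windows of all sites. The 4 windows were at the 5′ ends of Axin2 and Dkk2, 24.8 kb upstream of Lef1 and 9.1 kb upstream of Tcf7l2, which held 2 matches. They are printed with the motif in capitals, as chr11:108920420-108920440 for Axin2, chr3:132085763-132085783 for Dkk2, chr3:131085123-131085143 for Lef1, and chr19:55732476-55732496 and chr19:55732662-55732682 for Tcf7l2, all mm10, plus strand.
Axin2: ggctgcgCTTTGATaaggtcc
Dkk2: gtctggcCTTTGATtgcttcc
Lef1: ttttttcCTTTGAAcgcgtgt
Tcf7l2, first match: caatcttTTCAAAGgggtccc
Tcf7l2, second match: ggcctccCTTTGAAagctgga
The first Tcf7l2 match is the motif on the minus strand, and its capitals are therefore the reverse complement. The motif of AP-1, the Fos and Jun dimer, was TGANTCA, and it occurred in 29 of the 81 windows (35.8%, against 37.7% of all). It was in 1 of the 19 sites within 3 kb of the 5′ end of their gene and in 28 of the other 62 (45.2%). No window of the 81 held both motifs, against 3.97% of the windows of all sites. Some of the 81 held both over the whole site, such as the Tcf7l2 5′ site. The 19 sites near a 5′ end had a median GC content of 63.7%, against 49.8% in the other 62. Neither split was made over all sites, so neither is shown to be particular to these genes. The counts are of central windows, and a site can hold the motif outside its window. Over whole sites the TCF/LEF motif also lay in the 5′ sites of Tcf7l2 and Fzd7, among others. The Axin2 5′ site and the site 24.8 kb upstream of Lef1 each held 2 matches over their whole length. A match describes letters only.

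No site of the 10 genes was called differentially accessible, where a call needs an unadjusted limma p under 0.01 together with a 2-fold difference between KO and WT. That rule called 307 of all 82325 sites (0.373%), of which 249 (0.302%) were lower and 58 (0.0705%) higher in KO. The adjusted p (limma, Benjamini-Hochberg) was 1 for each of the 81 sites, and no site of the whole table had an adjusted p under 0.05. At an unadjusted p under 0.05 there were 3 sites, 3.7% of the 81, where the share of all sites was 3.13%. These were the Dkk2 site and both Fzd1 sites printed above. The count changed when either KO line was left out, and no share over all sites was computed for those fits. The median log2 fold change was -0.03 over the 81 sites and 0.01 over all sites, and 42 of the 81 (51.9%) lay below 0, against 49.3% of all. Values of WT and KO did not overlap at 22 sites, or 27.2% (all sites: 28.8%), 8 with both KO lines lower (9.88%, all sites 14.3%) and 14 with both higher (17.3%, all sites 14.6%). With a 2-fold difference as well, the 4 sites made 4.94%, against 4.48% of all.

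**Figure D1:**
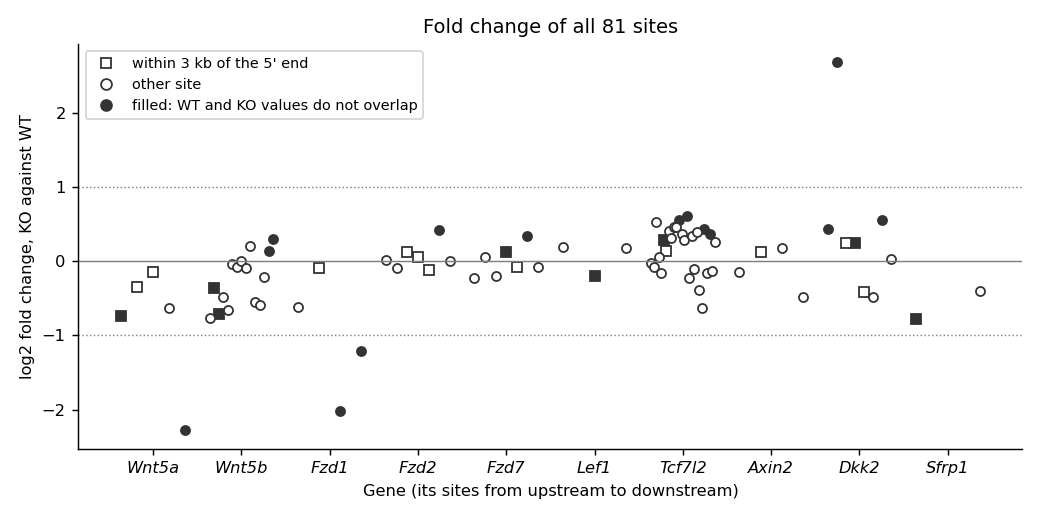
Log2 fold change (KO against WT) of each of the 81 sites, by gene and ordered from upstream to downstream; squares lie within 3 kb of the 5′ end, and filled symbols mark sites whose WT and KO values did not overlap. Between the dotted lines at a 2-fold difference lie 77 of the sites, and the 4 beyond them are at Wnt5a, Fzd1 (2 sites) and Dkk2.

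The spread between lines set the scale. The median absolute log2 difference between the KO lines was 0.47 over the 81 sites, and between the WT lines 0.30. Over all sites the same medians were 0.43 and 0.34. The KO lines differed by 2-fold or more at 17 of the 81 sites (20.8% of all sites did), and the WT lines at 8 (13.5% of all sites did). The median absolute fold change between the genotypes, 0.29, was smaller than the median difference between the KO lines. It is a difference between means of 2 lines, which varies less than a difference between single lines, so the measures are not alike. The values of the 81 sites ranged from 2 to 651 normalized counts, with a median of 68.5 at a median site length of 464 bp, against 52 at 440 bp for all sites.

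Summed over its sites, no gene passed the test either. For all 18244 protein-coding genes with a site by the same rule, limma gave no adjusted p under 0.05 (0.0%) and an unadjusted p under 0.05 for 759 (4.16%), 319 lower (1.75%) and 440 higher (2.41%) in KO. None of the 10 genes reached an unadjusted p of 0.05 on the values as deposited. With equal totals, with quantile normalization and with promoter sites alone, 1 did, which was Wnt5b each time. The count also changed when either KO line was left out. No share over all genes was computed for any of these settings. Sums of normalized counts ran from 82 for Sfrp1 in KO replicate 2 to 3851 for Tcf7l2 in KO replicate 1, and they grow with the number of sites, so sums of different genes are not compared. The sums did not overlap between the genotypes for 2 of the 10 genes, Wnt5b and Fzd1, both lower in KO. Among all genes tested the share without overlap was 35.1%, and 11.2% had both KO sums lower. For Fzd1 the separation was between 684 in WT and 681 in KO.

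**Figure D2:**
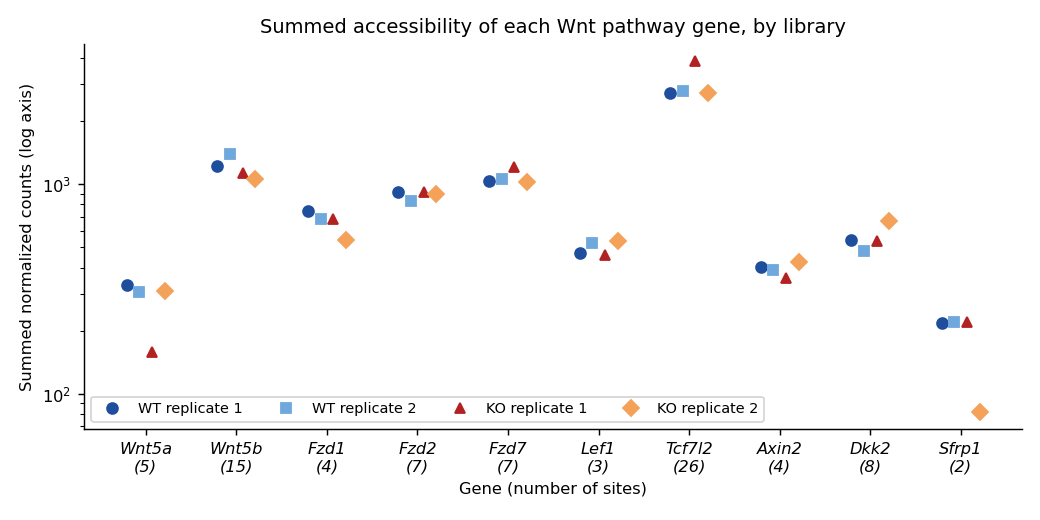
Summed normalized counts (log axis) of the sites of each gene in the 4 libraries, with the number of sites in brackets. The KO lines lie apart at Wnt5a (158 and 310), Tcf7l2 (3851 and 2713) and Sfrp1 (220 and 82), while the WT lines lie close together at these genes.

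Among the ligands, Wnt5a, the ligand of the branch without beta-catenin, lies on chr14:28504750-28527448 (mm10, plus strand). Its 5 sites summed to 332 and 306 normalized counts in WT replicates 1 and 2, and to 158 and 310 in KO replicates 1 and 2. KO replicate 2 lay within the WT range, and KO replicate 1 lay below the other 3 libraries. The log2 fold change was -0.52 (SE 0.32, limma adjusted p = 0.906), and -0.31 with the median of chromosome 14 in each library taken off. KO replicate 1 held the lowest value of the 4 libraries at 5 of 5 sites. Without KO replicate 1 the log2 fold change was -0.04, and without KO replicate 2 it was -1.01 (limma adjusted p = 0.319, the lowest of the alternatives run, which reached 1). The accessible region at the 5′ end (chr14:28504589-28504997, overlapping the 5′ UTR) held 87 and 64 in WT and 31 and 63 in KO, with a log2 fold change of -0.74 (SE 0.44) that was -0.24 without KO replicate 1 and -1.24 without KO replicate 2. The lower value of KO replicate 1 was shared by the exonic site 20.8 kb into the gene, with 34 and 40 in WT and 13 and 42 in KO. The site 28.1 kb downstream held 12 and 37 in WT and 2 and 6 in KO, about 14, 52, 2 and 4 reads. Both KO lines were lower there (log2 fold change -2.28, SE 1.00), but the WT lines differed by more than 2-fold and the KO values rest on few reads. The value was -1.34 with a pseudocount of 8 and -1.50 without WT replicate 2.

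The neighbourhood of Wnt5a showed the same split between the KO lines. In the study, domains that depend on HAT1 were defined in primary MEFs, by a mean log2 fold change under -0.58 over 25 consecutive sites, with nearby regions joined. The study also repeated the assay in immortalized MEFs and reported that the domain patterns were highly similar. Here the limit of -0.58 was set beside single windows in the immortalized lines, with other sites and another fold change. A window's side of the limit therefore does not say whether the gene lies in a domain of the study. The study's list of domains in primary MEFs was not compared with the genes here. The 25 sites centred on Wnt5a, which span 0.946 Mb, averaged -0.56. Against the WT mean, KO replicate 1 averaged -1.315 and KO replicate 2 averaged 0.19. In this window the WT lines differed by 0.48 on average, WT replicate 2 being higher. On the values as deposited none of the windows centred on the 10 genes lay under -0.58, but the Wnt5a window was close to it and depended on the scaling and the libraries. It averaged -0.63 with equal totals, -0.80 without WT replicate 1 and -1.315 without KO replicate 2, all past the limit. It was not past the limit with the chromosome medians of the libraries taken off (-0.35) or with a pseudocount of 8 (-0.37). The same held without WT replicate 2 (-0.33) and without KO replicate 1 (0.19). The next lowest were at Sfrp1 (-0.35), Wnt5b (-0.31) and Fzd1 (-0.27), and the highest were at Tcf7l2 (0.20) and Dkk2 (0.14).

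Wnt5b, the close relative of Wnt5a, lies on chr6:119432531-119544347 (minus strand). Its 15 sites summed to 1225 and 1390 in WT and to 1133 and 1055 in KO. Both KO sums lay below both WT sums (log2 fold change -0.255, SE 0.12, limma adjusted p = 0.906). Each KO line alone gave a like value against the WT mean, -0.20 and -0.31. At the 5′ end the site 0.1 kb upstream of the start (chr6:119544400-119544752) held 29 and 36 in WT and 24 and 26 in KO, a log2 fold change of -0.36. Its neighbour 0.1 kb downstream (chr6:119543389-119544263), named here after its values were seen, held 88 and 77 in WT and 52 and 48 in KO (log2 fold change -0.71, SE 0.31). Both sites at the 5′ end thus had no overlap between the genotypes. At no other site of the gene were both KO lines below both WT lines. Of its 15 sites, 11 had a log2 fold change below 0. The strongest distal site, in an intron 64.8 kb from the start and within 3 kb of a start of Fbxl14, held 291 and 286 in WT and 317 and 229 in KO. The sites at 97.9 kb and 99.9 kb were a little higher in both KO lines, with 69 and 71 in WT and 79 and 75 in KO at the first of them. At 3 other sites a single WT line stood apart. The intronic site at 30.9 kb held 280 in WT replicate 2 and 93 to 108 in the other libraries, the one at 22.0 kb held 188 in WT replicate 2 and 83 to 95 elsewhere, and the site 21.1 kb upstream held 69 in WT replicate 1 and 10 to 18 elsewhere. The summed difference moved with the WT lines. Without WT replicate 2 the log2 fold change of Wnt5b was -0.16, and without WT replicate 1 it was -0.35. With sites within 3 kb of the 5′ end alone it was -0.61.

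Of the receptors, which bind the ligands at the cell surface, Fzd1 lies on chr5:4753839-4758035 (minus strand) and has a single exon, as do Fzd2 and Fzd7. Its sites summed to 746 and 684 in WT and 681 and 543 in KO (log2 fold change -0.23, SE 0.15, limma adjusted p = 0.906). The site at the 5′ end (chr5:4756847-4758437), which covers coding sequence as well, held 576 and 587 in WT and 643 and 460 in KO. The KO lines lay on either side of the WT lines there, for a log2 fold change of -0.10. The summed value of Fzd1 was -0.07 without KO replicate 2, -0.395 without KO replicate 1 and -0.36 after quantile normalization. The larger site differences at Fzd1 lay beyond its 3′ end, at the pair of sites printed above. At 7.5 kb from the start, WT held 93 and 49 and KO 25 and 33 (log2 fold change -1.21, SE 0.44). At 7.1 kb, WT held 41 and 24 and KO 3 and 15 (log2 fold change -2.02, SE 0.83). The first was -0.75 without WT replicate 1, under 2-fold, and -1.66 without WT replicate 2. The second was -1.02 without KO replicate 1, -3.02 without KO replicate 2 and -1.32 with a pseudocount of 8. Both neighbours were lower in both KO lines, and both rest on few reads. In WT replicates 1 and 2 and KO replicates 1 and 2, the site at 7.5 kb held about 109, 69, 23 and 22 reads. The site at 7.1 kb held about 48, 34, 3 and 10. The last site, 10.1 kb upstream, held 36 and 24 in WT and 10 and 35 in KO.

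Fzd2, on chr11:102604396-102608058 (plus strand), summed to 915 and 834 in WT and 921 and 896 in KO, a difference smaller than that between the WT lines (log2 fold change 0.06, SE 0.11, limma adjusted p = 0.958). Its 5′ site (chr11:102603993-102604591) held 316 and 266 in WT and 298 and 332 in KO. The strongest distal site, 27.6 kb upstream in Gm11627, held 140 and 155 in WT and 165 and 135 in KO. Neither site separated the genotypes. Fzd7, on chr1:59482424-59486955 (plus strand), summed to 1038 and 1060 in WT and 1204 and 1021 in KO (log2 fold change 0.08, SE 0.12, limma adjusted p = 0.948). Its 5′ site (chr1:59481397-59482835) held 566 and 587 in WT and 651 and 609 in KO (log2 fold change 0.13, SE 0.10). Both KO lines were above both WT lines there, by a small margin that turned to -0.05 after quantile normalization. The distal site 17.9 kb upstream varied between lines instead, with 79 and 114 in WT and 147 and 66 in KO.

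**Figure D3:**
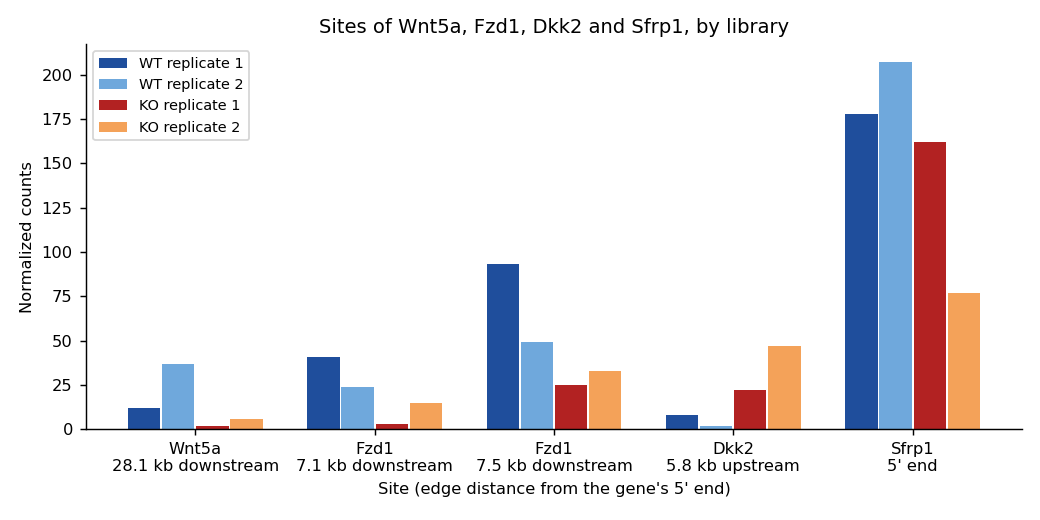
Normalized counts of 5 sites in the 4 libraries: the 4 sites with no overlap and at least a 2-fold difference, and the Sfrp1 5′ end, each bar being a single library. Both KO bars are below both WT bars at the Wnt5a and Fzd1 sites and above them at Dkk2, and at the Sfrp1 5′ end KO replicate 2 (77) stands below the other 3 libraries (162 to 207).

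Of the nuclear factors, Lef1, on chr3:131110471-131224356 (plus strand), had 3 sites that summed to 470 and 522 in WT and 461 and 536 in KO. The log2 fold change was 0.01 (SE 0.15, limma adjusted p = 0.996). The site at the 5′ end (chr3:131111014-131112642), which also covers the start of Gm43352, held 255 in each WT line and 211 and 235 in KO, a log2 fold change of -0.19 (SE 0.18). The site 24.8 kb upstream, which holds a TCF/LEF motif, had 178 and 205 in WT and 189 and 253 in KO. Its log2 fold change was 0.19, opposite in sign to that of the 5′ end. At the 5′ end both KO values lay below both WT values, and at the upstream site the values overlapped. KO replicate 2 lay 0.12 below the WT mean at the 5′ end on the log2 scale, less than the 0.15 between the KO lines.

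Tcf7l2, the TCF factor with the most sites, lies on chr19:55741820-55933654 (plus strand). Its 26 sites summed to 2713 and 2780 in WT and to 3851 and 2713 in KO. KO replicate 2 was equal to WT replicate 1, and KO replicate 1 was above the other 3 libraries. The log2 fold change was 0.235 (SE 0.17, limma adjusted p = 0.906), made up of 0.49 in KO replicate 1 and -0.02 in KO replicate 2 against the WT mean. KO replicate 1 was the highest library at 17 of 26 sites and above both WT lines at 18. KO replicate 2 was above both WT lines at 7 sites and below both at 10. The same held for the chromosome. Over the 2573 sites of chromosome 19 the median was 0.47 in KO replicate 1 and -0.03 in KO replicate 2 against the WT mean, and after the chromosome median of each library was taken off, the log2 fold change of Tcf7l2 was 0.03. The reason for the higher chromosome-wide level of KO replicate 1 was not tested. Without KO replicate 2, the log2 fold change of Tcf7l2 was 0.49 (limma adjusted p = 0.332, the lowest of the alternatives run, which reached 1).

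Within Tcf7l2 the site at the 5′ end (chr19:55741125-55741994) held 281 and 233 in WT and 338 and 289 in KO (log2 fold change 0.29, SE 0.18). The strongest distal site lies in an intron 133.5 kb from the start (chr19:55875274-55877051), with 282 and 304 in WT and 420 and 341 in KO (log2 fold change 0.37, SE 0.16). At both of these sites, and at 3 other sites of the 26, both KO lines were above both WT lines, where 14.6% of all sites were. With the chromosome medians taken off, the values were 0.08 and 0.17, and without KO replicate 1 they were 0.175 and 0.22. Without WT replicate 2 the value at the 5′ end was 0.15. Intronic sites at 7.8 kb, 25.1 kb and 27.1 kb showed the line difference plainly, with 183 and 214 in WT against 327 and 211 in KO at the first, 129 and 142 against 246 and 141 at the second, and 105 and 118 against 204 and 131 at the third. Going the other way, the exonic site at 121.7 kb held 105 and 44 in WT and 59 and 32 in KO, where the WT lines differed by more than 2-fold. The site 9.1 kb upstream with 2 TCF/LEF motifs was weak, with 18 in each WT line and 29 and 12 in KO.

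**Figure D4:**
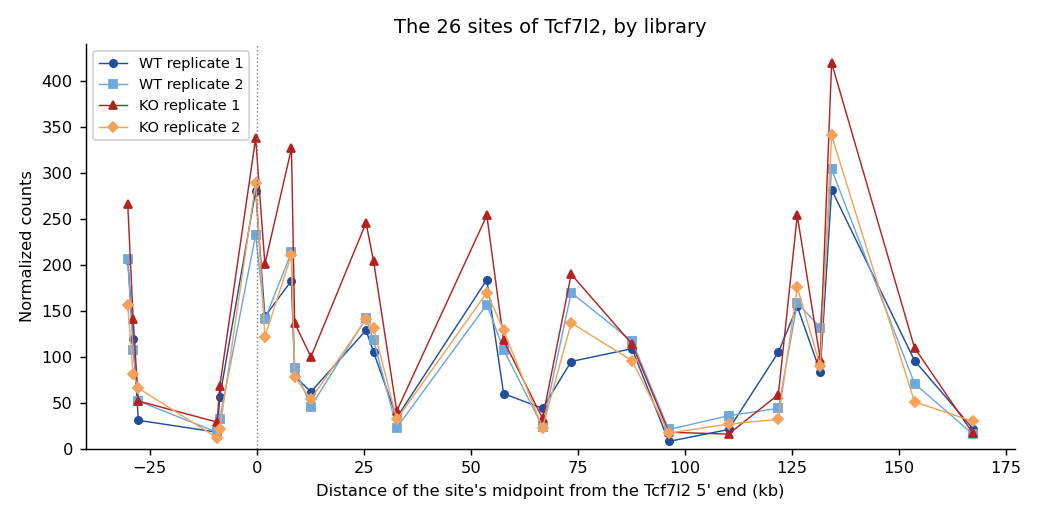
Normalized counts of the 26 Tcf7l2 sites in the 4 libraries against the distance of the site's midpoint from the 5′ end (kb), the dotted line being the 5′ end. KO replicate 1 is the highest library at 17 of the 26 sites, and the other 3 libraries run close together over much of the gene.

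Axin2, the feedback target of the canonical branch, lies on chr11:108920349-108950783 (plus strand). Its 4 sites summed to 404 and 388 in WT and 355 and 425 in KO, with the KO lines on either side of WT (log2 fold change -0.03, SE 0.16, limma adjusted p = 0.99). The site at its 5′ end (chr11:108920078-108920876), which holds a TCF/LEF motif, had 195 and 170 in WT and 180 and 217 in KO. The site 21.8 kb upstream had 112 and 149 in WT and 103 and 131 in KO. Neither separated the genotypes.

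Dkk2, a secreted inhibitor that binds the Wnt co-receptors, lies on chr3:132085292-132180304 (plus strand). Its 8 sites summed to 543 and 480 in WT and 533 and 665 in KO, so that KO replicate 2 was above both WT lines and KO replicate 1 between them. The log2 fold change was 0.22 (SE 0.16, limma adjusted p = 0.906). Both KO lines were above both WT lines at 4 of its 8 sites, where the share of all sites was 14.6%. KO replicate 2 by itself was above both WT lines at 7 of 8, for which no share over all sites was computed. The neighbourhood split by line too. Over the 25 sites centred on Dkk2, KO replicate 1 averaged -0.27 and KO replicate 2 averaged 0.55 against the WT mean. Sites of a single gene share their surroundings and are not replicates. The largest fold change of the 81 sites was the one 5.8 kb upstream, with 8 and 2 normalized counts in WT and 22 and 47 in KO, about 9, 3, 20 and 31 reads. Its log2 fold change was 2.68 (SE 0.86, limma adjusted p = 1), and it lies within 3 kb of the start of the small gene Gm22421. It ranged from 1.88 to 3.47 when each library was left out in turn, and was 1.68 with a pseudocount of 8. The summed value of Dkk2 was 0.06 without KO replicate 2, 0.38 without KO replicate 1, 0.13 without WT replicate 2 and -0.02 with promoter sites alone. The intronic site at 32.5 kb (chr3:132117770-132118282) held 108 and 101 in WT and 142 and 167 in KO (log2 fold change 0.56, SE 0.25). The 5′ end (chr3:132085356-132086173), with its TCF/LEF motif, held 125 and 101 in WT and 132 and 135 in KO (log2 fold change 0.25). Going the other way, the site 1.6 kb downstream of the start held 136 and 137 in WT and 75 and 138 in KO. It counts among the sites within 3 kb of a start, and its value was set apart in KO replicate 1 alone.

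Sfrp1, which binds Wnt ligands outside the cell, lies on chr8:23411502-23449632 (plus strand) and had 2 sites. They summed to 218 and 221 in WT and 220 and 82 in KO. KO replicate 1 matched WT and KO replicate 2 was below, for a log2 fold change of -0.70 (SE 0.45, limma adjusted p = 0.906). Without KO replicate 1 the value was -1.41 (limma adjusted p = 0.564, the lowest of the alternatives run, which reached 1), and without KO replicate 2 it was 0.0033. The site at the 5′ end (chr8:23411168-23412154) held 178 and 207 in WT and 162 and 77 in KO (log2 fold change -0.78, SE 0.38), a value of -1.31 without KO replicate 1 and -0.24 without KO replicate 2. The intronic site at 17.2 kb was more varied, with 40 and 14 in WT and 58 and 5 in KO. It is shown by its central 300 bases (chr8:23428753-23429052, mm10, plus strand), with both AP-1 motifs in capitals, because the KO lines were farther apart on the log2 scale there than at any other of the 81 sites.
Sfrp1, 17.2 kb downstream: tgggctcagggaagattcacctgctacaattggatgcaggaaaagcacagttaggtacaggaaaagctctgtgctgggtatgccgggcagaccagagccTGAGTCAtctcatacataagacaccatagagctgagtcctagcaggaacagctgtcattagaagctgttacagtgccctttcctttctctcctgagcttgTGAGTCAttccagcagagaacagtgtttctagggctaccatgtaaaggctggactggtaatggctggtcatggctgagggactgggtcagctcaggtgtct
Sfrp1 and Wnt5a thus held opposite positions. At Wnt5a KO replicate 1 was low and KO replicate 2 was at WT, and at Sfrp1 the reverse.

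**Figure D5:**
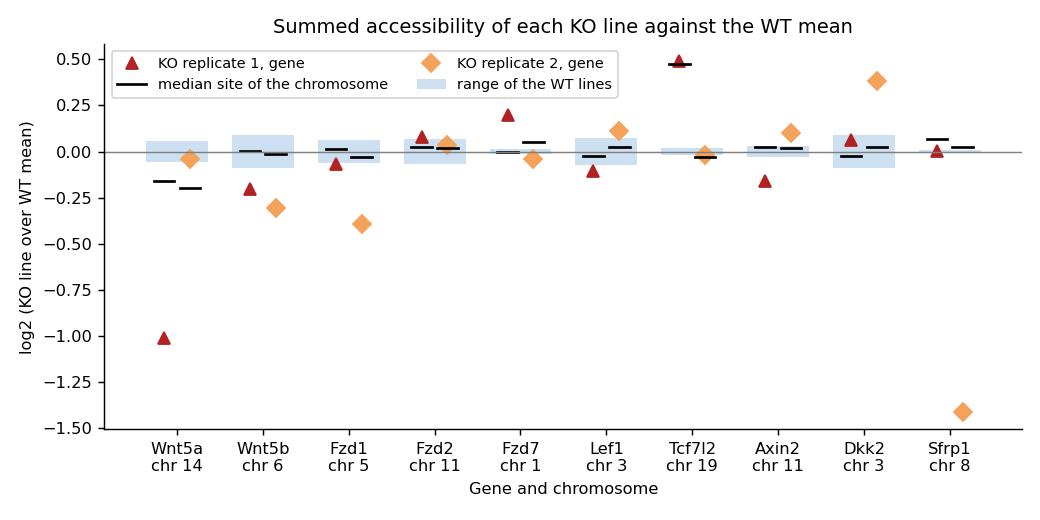
Summed accessibility of each KO line against the WT mean (log2) for the 10 genes, with the range of the WT lines shaded and the median of all sites of the gene's chromosome as a short bar for each KO line. KO replicate 1 lies lowest at Wnt5a (-1.01) and highest at Tcf7l2 (0.49), where it sits by the median of its chromosome (0.47), and KO replicate 2 lies lowest at Sfrp1 (-1.41).

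The other genes of the pathway were described in the same way. A list of 83 Wnt ligands, receptors, inhibitors, cytoplasmic and nuclear components, polarity genes and targets held 82 with a site, the receptor gene Fzd10 being the exception. No gene of the list had an adjusted p under 0.05 (limma), and 2 had an unadjusted p under 0.05, or 2.44%, against 4.16% of all genes tested. Both were lower in KO. Ror1, a receptor of Wnt5a, had 15 sites that summed to 984 and 963 in WT and 657 and 755 in KO (log2 fold change -0.47, SE 0.12, limma adjusted p = 0.906). Sfrp2, a relative of Sfrp1, had 9 sites that summed to 661 and 703 in WT and 573 and 418 in KO (log2 fold change -0.48, SE 0.18, limma adjusted p = 0.906). At both genes the WT and KO sums did not overlap, but the genes were named for their low p, so this adds no support. Among all genes tested the share without overlap was 35.1%, and 11.2% had both KO sums lower. The count of 2 was unstable. It changed with each library that was left out, and no share over all genes was computed for those fits. The median log2 fold change was 0.03 over the list, -0.01 over the 10 genes and 0.05 over all genes tested. By role, the medians ran from -0.11 for the 7 target genes to 0.07 for the 21 ligands.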

How the data were processed

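ATAC-Seq was done on 2 HAT1 WT and 2 HAT1 KO immortalized MEF lines. Per the study methods and the submitters' processing notes, the authors used BWA 0.7.12 for alignment of paired-end reads (mm10), MACS2 2.1.0 for peaks and DESeq2 to compare genotypes. The deposited values are a score: read counts of each merged site that the authors divided by a factor per library and rounded to whole numbers. Read filters, treatment of multi-mapping reads and of the Tn5 offset, and pooling for peak calling were not given in the sources used here. A further 4 deposited columns (2 kinds of log2 fold change, p-value and adjusted p-value) hold the authors' comparison and were not used.

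Because rounded normalized values are not counts, limma 3.58.1 with an intensity trend (R 4.3.3) was fitted to log2(value + 1) over all 82325 sites, with no filter, and p-values were adjusted by Benjamini-Hochberg over all of them. Fold changes are on that scale, which understates changes of low sites. A site call needed an unadjusted p under 0.01 together with a 2-fold difference. Gene sums over sites were tested in the same way, with genes called at an adjusted p under 0.05. Replicates were numbered in accession order. With 2 against 2 libraries there are 3 ways to split them evenly, and an exact two-sided permutation test cannot go below p = 0.333. Depth in reads was estimated from the whole numbers that each library's factor leaves out among low values. It is approximate and bears on counting error only.

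Genes came from GENCODE M21 and sequences from the RefSeq GRCm38 genome, the mm10 build, in which 0 sites lay beyond a chromosome end. A distance is from the gene's 5′ end to the nearest edge of the site. Motifs were counted in the central 300 bases of each site. The sites named for every gene were the one nearest the 5′ end, the distal one (over 3 kb away) with the largest mean, and those with no overlap and at least a 2-fold difference. Others are examples taken after values were seen. From the pathway list, genes at an unadjusted p under 0.05 were named, up to 3 in each direction. The 10 genes, the pathway list, the markers and the tests were chosen with earlier results of these data known. The code was tested on simulated data. Python 3.11.15, numpy 2.4.6, pandas 2.3.3 and pysam 0.24.0 were used.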

Additional observations from a re-analysis of the deposited data

How the results depend on the processing

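In each alternative run, 0 of the sites of the 10 genes and 0 of the genes were called. The number of sites at an unadjusted limma p under 0.05 (3 of 81) was 0 of the 50 sites at or above the median value of all sites, 5 of 128 with a window of 100 kb, and 2 to 10 when each library was left out. The median log2 fold change of the sites then ran from -0.0120 to 0.0557. For the pathway list the count at an unadjusted p under 0.05 (2) was 4 with equal totals and 0 to 9 with a library left out. Where a genotype keeps a single library, that library is assumed to vary like the others. Equal totals moved the median of all sites to -0.06. They turned the summed fold changes of Fzd2 to -0.0120 and Lef1 to -0.0632, and those of the sites 27.6 kb upstream of Fzd2 to -0.0493 and 17.9 kb upstream of Fzd7 to -0.0136. Quantile normalization turned Fzd2 to -0.0055, Fzd7 to -0.0343, Lef1 to -0.0778, the same Fzd2 site to -0.0404 and the Fzd7 5′ site to -0.0533. With promoter sites alone, Lef1 was -0.19, Axin2 0.12 and Dkk2 -0.0243. The causes were not tested. With each library left out in turn, the sign also turned for the sums of Fzd2 (-0.0104 to 0.12), Fzd7 (-0.0389 to 0.20), Lef1 (-0.10 to 0.11), Tcf7l2 (-0.0176 to 0.49), Axin2 (-0.16 to 0.10) and Sfrp1 (-1.41 to 0.0033), and for the sites Wnt5a 20.8 kb (-1.44 to 0.18), Wnt5b 64.8 kb (-0.33 to 0.14), Fzd1 5′ end (-0.34 to 0.14), Fzd2 27.6 kb (-0.125 to 0.16) and 5′ end (-0.0066 to 0.24), Fzd7 17.9 kb (-0.52 to 0.63), Lef1 24.8 kb (-0.0153 to 0.40), Axin2 21.8 kb (-0.36 to 0.0522) and 5′ end (-0.0164 to 0.25), and Sfrp1 17.2 kb (-2.05 to 1.25). No paired analysis was possible because the genotypes share only 1 line number, 643 (WT replicate 1 and KO replicate 2), which gives a single pair. Of the other values of genes and named sites, 52 and 127 kept their sign and their side of the threshold over the alternatives that keep all libraries. The KO libraries were shallower, and depth limits the sites with the lowest values, which rest on as few as 2 reads in a library.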
